A study of Mus musculus with 26 samples.

Results

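The genes described are 10 genes of the immediate-early and dissociation stress response in sorted mouse endothelial cells: Atf3, Fos, Egr2, Dusp6, Rgs2, Ptgs2, Btg2, Zfp36l1, Gadd45b and Ier5. Their members are the probe sets whose only annotated gene symbol is 1 of these 10 genes, and there were 66 of them among 65535 probe sets. The values used hold these 65535 probe sets, with 5109 genes named, and may be only part of the array. Each gene had 3 to 11 probe sets, and all 10 genes were among the 4386 genes tested. Values are log2 expression values as deposited, so that a difference of 1 is a doubling.

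Immediate-early genes are switched on within minutes of a stimulus by factors that are already in the cell, among them CREB, SRF and the AP-1 proteins, and their transcripts are short-lived. They encode transcription factors, feedback inhibitors of kinase and G protein signalling, and proteins that speed mRNA decay or slow cell division. In endothelium they respond to growth factors, flow, cytokines and injury, and enzymatic digestion of a tissue is itself known to switch them on in the cells that it releases.

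The 26 arrays measured endothelial cells sorted as CD31+/CD146+ from digested tumours or kidneys of female mice. The first model was MCA313-IFNγ-IND, a tumour that can be made to produce interferon gamma (IFNγ), grown in PIG-Pdgfb-Cre-IFNγ-del mice aged 4 to 6 months. In these mice only endothelial cells carry the IFNγ receptor. Endothelium was taken from tumours without treatment (0 h, 3 arrays) and after 24 h or 48 h of induction (2 arrays each). The second was J558L-IFNγ-GFP-IND, a tumour of the plasmacytoma line J558L made to produce an IFNγ-GFP fusion, in Rag-/- mice aged 4 to 6 months. These hosts have the receptor on all cells but no mature T or B cells. Tumour endothelium was taken at 0 h (2 arrays) and 24 h (3 arrays), and kidney endothelium of mice with these tumours at 0 h and 24 h (3 arrays each). The third was the tumour 16.113 in Rag-/- mice aged 3 to 4 months, sampled 120 h after transfer of tumour-specific T cells either able to make IFNγ (called competent, 3 arrays) or IFNγ-deficient (called deficient, 5 arrays). The labels number the replicates without saying that each came from its own animal, so the p-values measure the spread between these samples, which may be technical.

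All groups, controls included, went through digestion with collagenase, DNAse and Dispase, sorting of 5000 to 15000 cells, and amplification from about 500 pg of total RNA with 12 cycles before labelling. Array medians lay between 5.62 and 6.46. Pairs of arrays shared 421 to 2650 exact values within 4 sets (MCA313, J558L tumour, J558L kidney and 16.113) and 0 to 2 between them, so the sets appear to have been normalized separately and levels were compared within a set only. Pecam1, which encodes the sort marker CD31, lay between 13.46 and 13.99 in every array. Of the other cell types' marker lists 5 of 15 leukocyte, 6 of 10 pericyte and fibroblast, 2 of 7 red cell and platelet and 2 of 4 plasmacytoma genes were measured, while the 6 kidney epithelial markers listed were not analysed here. Lower values of a transcript in such pools can come from fewer cells of a type or from less RNA per cell, which cannot be told apart.

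The stretch of 250 bases before the annotated start was read for all 10 genes from RefSeq promoters of the GRCm38.p6 assembly. Those of Fos, Atf3, Egr2 and Btg2 are shown as 4 of the 5 that hold the half-site of the cyclic AMP response element (CRE), which CREB and ATF proteins bind (the fifth, Rgs2, is described only), and that of Dusp6 because it was the gene whose change passed the test. Capitals mark the CRE half-site TGACGT on either strand and, in Egr2, also the CArG box, to which SRF binds.
Fos, chr12:85473640-85473889, plus strand: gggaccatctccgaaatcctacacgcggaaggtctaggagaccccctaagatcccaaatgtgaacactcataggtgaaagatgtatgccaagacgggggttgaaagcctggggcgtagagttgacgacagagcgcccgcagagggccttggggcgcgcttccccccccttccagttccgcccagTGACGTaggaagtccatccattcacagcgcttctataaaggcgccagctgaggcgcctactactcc
Atf3, chr1:191183334-191183583, minus strand: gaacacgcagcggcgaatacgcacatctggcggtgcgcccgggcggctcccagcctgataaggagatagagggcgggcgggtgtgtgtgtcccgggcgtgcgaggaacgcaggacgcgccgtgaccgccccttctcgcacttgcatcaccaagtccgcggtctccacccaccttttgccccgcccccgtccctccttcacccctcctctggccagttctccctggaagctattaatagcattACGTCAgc
Egr2, chr10:67537619-67537868, plus strand: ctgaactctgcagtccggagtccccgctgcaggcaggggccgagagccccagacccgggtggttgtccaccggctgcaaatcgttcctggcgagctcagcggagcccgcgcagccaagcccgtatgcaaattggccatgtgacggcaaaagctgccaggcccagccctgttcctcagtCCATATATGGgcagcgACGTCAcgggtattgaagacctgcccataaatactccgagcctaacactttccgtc
Btg2, chr1:134079156-134079405, minus strand: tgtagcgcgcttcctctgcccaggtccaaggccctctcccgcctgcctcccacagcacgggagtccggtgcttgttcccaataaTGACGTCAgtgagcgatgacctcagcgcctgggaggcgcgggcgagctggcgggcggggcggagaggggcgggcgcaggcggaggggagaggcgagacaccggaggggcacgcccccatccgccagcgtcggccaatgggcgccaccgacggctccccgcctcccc
Dusp6, chr10:99262981-99263230, plus strand: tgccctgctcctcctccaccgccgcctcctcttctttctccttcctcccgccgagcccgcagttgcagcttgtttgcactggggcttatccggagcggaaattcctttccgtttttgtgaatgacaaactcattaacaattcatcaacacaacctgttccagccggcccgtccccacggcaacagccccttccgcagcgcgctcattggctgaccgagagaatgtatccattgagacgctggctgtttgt

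The half-site TGACGT was found on either strand before 5 of the 10 genes, which were Atf3, Fos, Btg2, Rgs2 and Egr2, and before 7.29% of 27025 genes with a promoter entry. It began 66 bases before the start in Fos, 8 in Atf3 and 56 in the Egr2 entry shown, 1 of 5 for that gene. In Btg2 a match 166 bases before the start overlaps a second one on the other strand and forms the full palindrome TGACGTCA, which 1.77% of genes hold. A CArG box was found in Egr2 and in 1.62% of all genes. None of the 10 held the AP-1 site TGAGTCA (5.16% of genes), the EGR site GCGTGGGCG (0.622%) or the GAS element TTCNNNGAA (8.13%) in this window. These matches describe letters only, and no binding was measured.

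Each gene was represented in the tests by its brightest probe set, and changes are given as the difference of group means ± standard error, with p adjusted over the 4386 genes by the Benjamini-Hochberg method in limma. Among the 10 genes and the 6 comparisons within a set, 1 change passed an adjusted p of 0.05: Dusp6 was higher in 16.113 endothelium after IFNγ-competent than after deficient T cells. In J558L tumours 9 of the 10 changes lay above 0 (48.5% of all genes did) and 6 genes had 24 h arrays all above 0 h (13.8% of all genes), without any of them passing. In MCA313 tumours Gadd45b was the gene furthest above its control at both times, and in kidney no gene's groups were apart. The plot of the brightest probe sets by array shows these values.

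**Figure D1:**
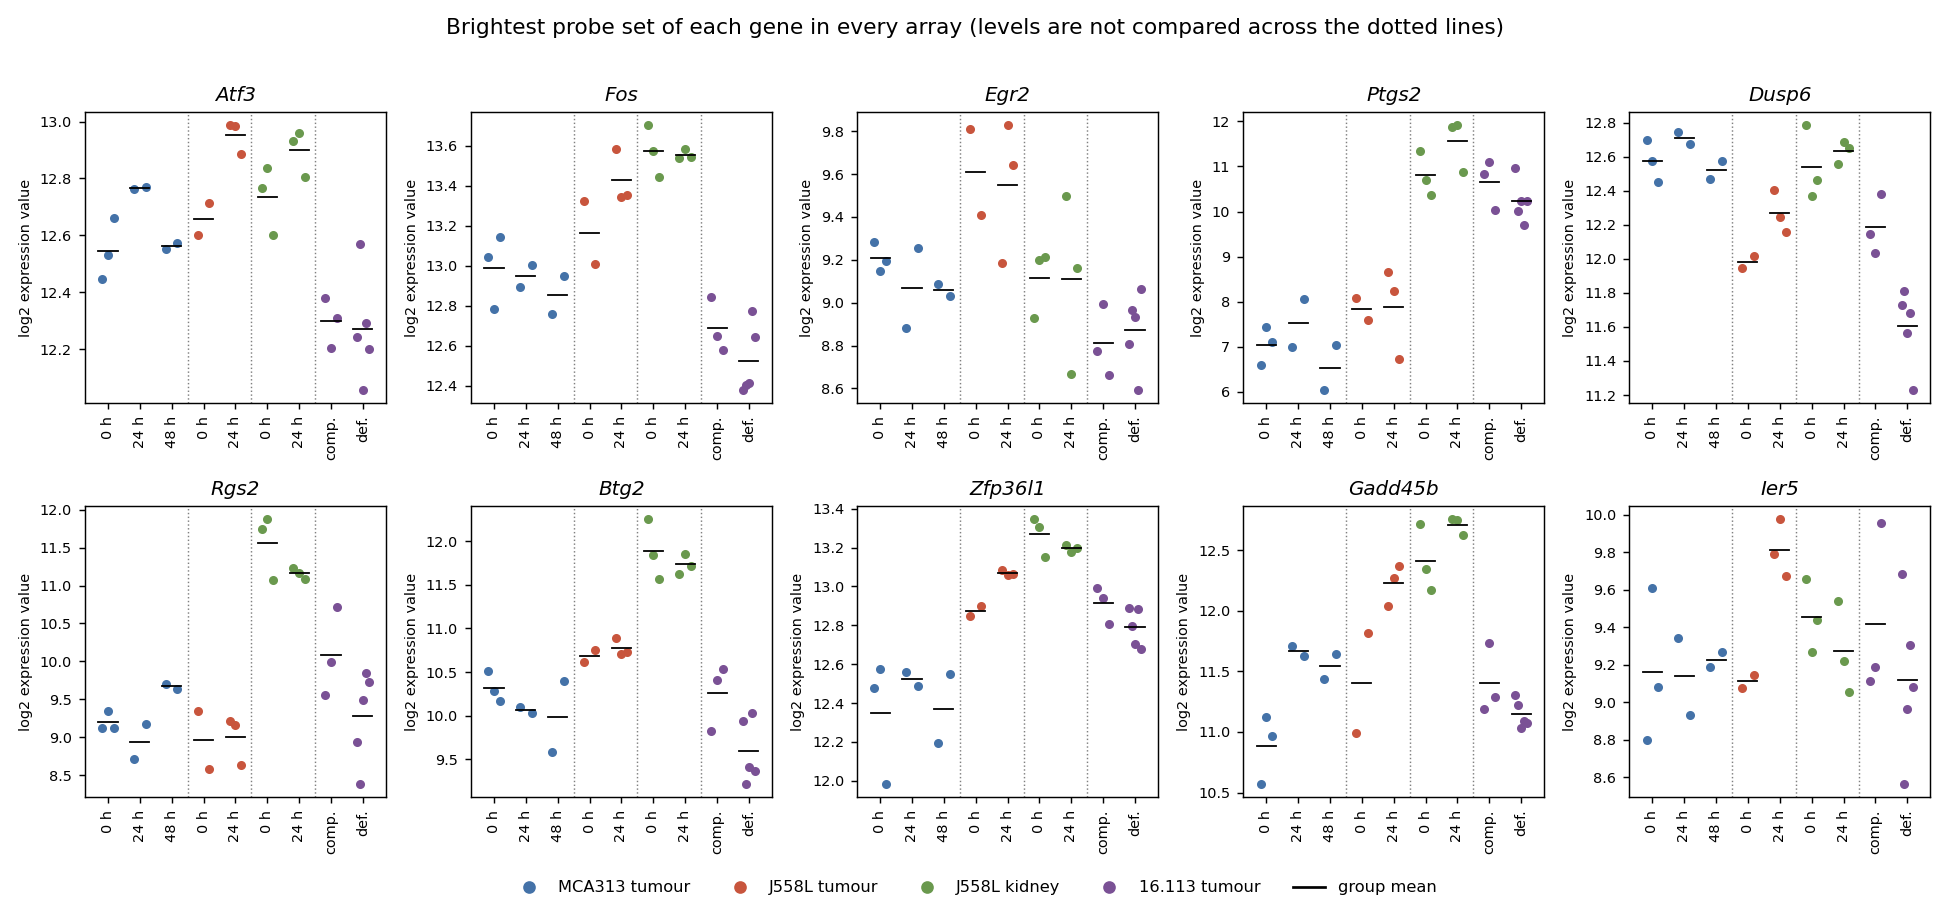
Brightest probe set of the 10 genes in every array, with 1 point per array on the log2 scale, bars at group means and dotted lines between sets whose levels are not compared (comp. and def. are IFNγ-competent and IFNγ-deficient T cells). Dusp6 in 16.113 lies between 12.03 and 12.38 with competent and between 11.23 and 11.81 with deficient T cells, and Gadd45b at 24 h lies above its controls in both tumours.

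Dusp6 encodes a phosphatase that inactivates the MAP kinase ERK and is itself an early target of ERK signalling. In 16.113 tumours its brightest probe set, 17236886, read 12.15, 12.03 and 12.38 in the 3 arrays with competent T cells and 11.73, 11.81, 11.56, 11.68 and 11.23 in the 5 with deficient T cells. The lowest competent array lay above the highest deficient one, and the fifth deficient array was the lowest of the set. The difference was 0.58 ± 0.14, 1.50-fold, with a 95% interval of 0.29 to 0.88 and an adjusted p of 0.0130 in limma. Of all genes 7.36% passed in this comparison, 2.55% in the higher direction, and 3.9% had groups that did not overlap with the competent one higher. Dusp6 was the only 1 of the 10 genes with groups apart here.

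All 5 probe sets of Dusp6 were higher with competent T cells, by 0.10 to 0.77. Probe set 17236883 was the furthest apart, with 11.08, 11.03 and 11.56 against 10.60, 10.32, 10.44, 10.63 and 10.29, a difference of 0.77 ± 0.18 (adjusted p = 0.0311 in limma over 53857 probe sets). Probe sets 17236884, 17236885 and 17236886 also had groups that did not overlap, as had 2.68% of all probe sets in this direction, but did not pass over the 53857 probe sets (adjusted p = 0.0775, 0.0893 and 0.0782 in limma). Probe set 17236887, with 12.00, 11.82 and 11.87 against 11.60, 11.96, 11.85, 11.72 and 11.85, overlapped and differed by 0.10 ± 0.16. With the 5 probe sets averaged the difference was 0.52 ± 0.11 (adjusted p = 0.00337 in limma over 2854 genes).

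The call for Dusp6 turned on the third competent array, the highest of the set: without it the difference was 0.49 and the adjusted p 0.0842 in limma. It was also lost when arrays were weighted by quality (adjusted p = 0.104) and when only the 8 arrays of this set were fitted (0.224). Between competent and deficient arrays the summed level of the 2 measured endothelial markers ranged over 13.72 to 13.84 against 13.74 to 13.94, that of the 5 leukocyte markers over 10.58 to 11.45 against 10.71 to 11.66, and that of the 6 pericyte and fibroblast markers over 12.00 to 12.88 against 12.57 to 13.03. Sdc1, a plasma cell and epithelial proteoglycan, fell by 0.94 with competent T cells (adjusted p = 0.0392 in limma). The part of such cells in the Dusp6 difference was not tested.

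**Figure D2:**
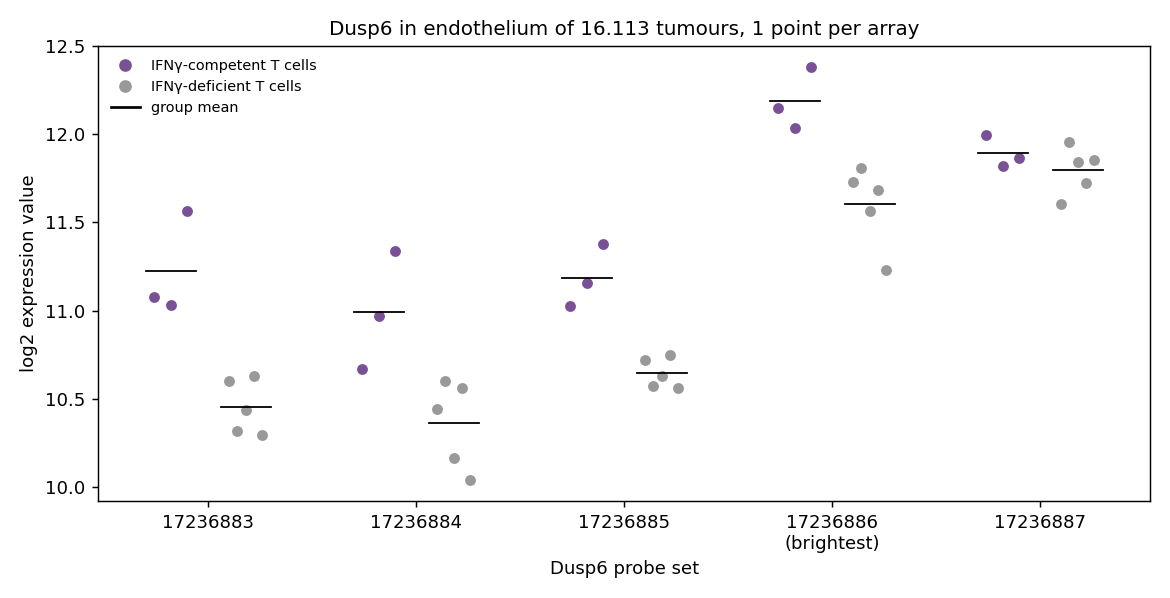
The 5 probe sets of Dusp6 in 16.113 tumour endothelium on the log2 scale, with 1 point per array and bars at group means. At 4 probe sets every competent array lies above every deficient one, and at 17236887 the groups overlap.

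In the other sets no change of Dusp6 passed. J558L tumour read 11.95 and 12.02 at 0 h and 12.40, 12.25 and 12.16 at 24 h, so that all 24 h arrays lay above both controls, by 0.29 ± 0.18 on average (adjusted p = 0.805 in limma), with 5 of 5 probe sets higher. In MCA313 the values were 12.70, 12.58 and 12.45 at 0 h, 12.74 and 12.67 at 24 h, and 12.47 and 12.57 at 48 h, and the groups overlapped with their control. Kidney read 12.78, 12.37 and 12.46 at 0 h and 12.56, 12.69 and 12.65 at 24 h, also overlapping. The difference between the 16.113 and the J558L tumour response was 0.30 ± 0.23 (adjusted p = 0.881 in limma), so the responses in 16.113 and J558L were not shown to differ.

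Rgs2, a GTPase-activating protein that ends signalling through Gq-coupled receptors, also lay higher on average with competent T cells in 16.113, with more spread than Dusp6. Its brightest probe set read 9.56, 9.99 and 10.72 with competent and 8.93, 8.38, 9.49, 9.85 and 9.73 with deficient T cells, and the lowest competent array lay below 2 deficient ones. The difference was 0.81 ± 0.30 (adjusted p = 0.114 in limma) and the median over its 6 probe sets was 0.15, with 5 above 0 and the brightest furthest from it. Without the first competent array the difference was 1.08 (adjusted p = 0.0395 in limma). In that fit 565 of 4386 genes passed, against 323 with all arrays. Without the third competent array the difference was 0.50 (adjusted p = 0.481). Averaged over probe sets it was 0.26 (adjusted p = 0.608).

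In MCA313, Rgs2 read 9.12, 9.34 and 9.12 at 0 h, 8.71 and 9.17 at 24 h, and 9.70 and 9.64 at 48 h. The 48 h arrays lay above all others of the set and the 24 h arrays overlapped the control, with changes of -0.25 ± 0.38 at 24 h and 0.48 ± 0.38 at 48 h. At 24 h 0 of 6 probe sets were higher, and at 48 h 5 of 6. Between 48 h and 24 h the difference was 0.73 ± 0.42, with 6 of 6 probe sets higher and an adjusted p of 1.00 in limma.

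Kidney endothelium read 11.75, 11.87 and 11.07 for Rgs2 at 0 h and 11.24, 11.16 and 11.08 at 24 h. All 6 probe sets were lower at 24 h, the brightest by 0.40 ± 0.34 (adjusted p = 0.692 in limma), and the groups overlapped through the third control. In J558L tumour the values were 9.35 and 8.59 at 0 h and 9.21, 9.16 and 8.63 at 24 h, an overlap with a change of 0.03 ± 0.38.

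Among the transcription factors, Atf3, a stress-induced member of the ATF/CREB family, was one of the steadiest genes measured, as judged at its brightest probe set. In J558L tumour it read 12.60 and 12.71 at 0 h and 12.99, 12.99 and 12.89 at 24 h, a change of 0.30 ± 0.15 (adjusted p = 0.669 in limma) with groups apart. Each of its 6 probe sets lay higher at 24 h, and 5 had groups that did not overlap, as had 11.5% of all probe sets in this direction. Probe set 17231038 was the furthest apart, from 9.77 and 9.64 to 10.50, 10.85 and 10.54, or 0.93 ± 0.29 (adjusted p = 0.443 over the probe sets in limma).

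In MCA313, Atf3 read 12.45, 12.53 and 12.66 at 0 h, 12.76 and 12.77 at 24 h, and 12.55 and 12.57 at 48 h. Both 24 h arrays lay above every control and both 48 h arrays lay within the controls' range, with changes of 0.22 ± 0.15 and 0.02 ± 0.15 at adjusted p of 0.663 and 0.975 in limma. Kidney read 12.77, 12.84 and 12.60 at 0 h and 12.93, 12.96 and 12.80 at 24 h. These overlapped at the brightest probe set, with a change of 0.16 ± 0.13, and all 6 probe sets were higher. In 16.113 the values were 12.38, 12.20 and 12.31 with competent and 12.24, 12.57, 12.06, 12.29 and 12.20 with deficient T cells, a difference of 0.03 ± 0.12 with both groups spread over the same range.

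Fos, the partner of Jun proteins in AP-1, stood at 12.38 or more at its brightest probe set in all 26 arrays. In J558L tumour it read 13.32 and 13.01 at 0 h and 13.58, 13.35 and 13.36 at 24 h, so that the first control lay just below the 24 h arrays, with a change of 0.26 ± 0.17 (adjusted p = 0.836 in limma) and 7 of 8 probe sets higher. In kidney 13.70, 13.57 and 13.44 at 0 h stood against 13.54, 13.58 and 13.54 at 24 h, with a change of -0.02 ± 0.15 and 7 of 8 probe sets lower. The difference between these responses was 0.28 ± 0.22 (adjusted p = 0.999 in limma) and did not pass.

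MCA313 read 13.04, 12.78 and 13.15 for Fos at 0 h, 12.89 and 13.00 at 24 h, and 12.76 and 12.95 at 48 h. The groups overlapped, and at 48 h all 8 probe sets lay below the control, the brightest by 0.14 ± 0.17 (adjusted p = 0.825 in limma). In 16.113 the values were 12.85, 12.65 and 12.58 with competent and 12.38, 12.40, 12.42, 12.78 and 12.64 with deficient T cells. There 8 of 8 probe sets were higher with competent T cells, the brightest by 0.17 ± 0.13 (adjusted p = 0.511 in limma), and deficient arrays 4 and 5 reached into the competent range.

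Egr2, a zinc finger factor induced through SRF, had probe sets that disagreed with each other. Its brightest probe set, 17233994, lay between 8.59 and 9.83 in all arrays and its differences from the control or deficient group were between -0.15 and 0 in the 5 comparisons. Probe set 17234002 read 7.96 and 8.25 at 0 h and 9.01, 9.21 and 9.49 at 24 h in J558L tumour, 1.13 ± 0.58 higher, and 9.91, 9.64 and 9.44 against 10.35, 10.32 and 10.36 in kidney, 0.68 ± 0.52 higher. In both tissues its groups did not overlap, as was so for 11.5% and 7.62% of all probe sets in this direction. The adjusted p over all probe sets was 0.960 and 0.744 in limma.

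Probe sets 17233999 and 17234000 gave changes of 1.20 ± 0.65 and 1.38 ± 0.68 in J558L tumour, with groups apart. Probe set 17234001, numbered between these and 17234002, pointed the other way, by -0.52 in J558L tumour and -0.38 in kidney. Of the 10 Egr2 probe sets 6 were higher and 4 lower in J558L tumour, and 7 and 3 in kidney. In 16.113 probe sets 17233999, 17234000 and 17234002 pointed down with competent T cells. Of these 17234002 read 9.85, 8.41 and 6.71 against 9.62, 10.09, 9.78, 9.19 and 8.77, a difference of -1.17 ± 0.46 (adjusted p = 0.219 in limma). The 3 competent arrays spread more widely than the 5 deficient ones. Averaged over its 10 probe sets, the Egr2 difference was 0.58 in J558L tumour, 0.39 in kidney and -0.41 in 16.113, with adjusted p of 0.355, 0.396 and 0.238 in limma. As its probe sets disagree, the single value that stood for Egr2 in the tests is not a summary of the gene.

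Ptgs2 encodes cyclooxygenase-2, the inducible enzyme of prostaglandin synthesis, and had the widest spread of the 10 genes at the brightest probe set. In kidney its brightest probe set read 11.33, 10.71 and 10.36 at 0 h and 11.88, 11.91 and 10.87 at 24 h. The third 24 h array lay within the control range, and the change was 0.75 ± 0.47 (adjusted p = 0.532 in limma). Each of the 11 probe sets pointed up at 24 h (median change 1.09), and 7 had groups that did not overlap, as had 7.62% of all probe sets in this direction. Probe set 17218072 was the furthest apart, from 6.55, 7.54 and 6.53 to 9.14, 8.81 and 7.78, or 1.70 ± 0.66 (adjusted p = 0.336 over the probe sets in limma). With probe sets averaged the change was 1.19 (adjusted p = 0.0961 in limma). The summed pericyte and fibroblast markers lay apart in kidney too, at 12.56 to 12.62 at 0 h and 12.23 to 12.54 at 24 h. Of these markers Rgs5 and Des were lower on average at 24 h, while Col1a1, Col3a1, Dcn and Lum were higher. Their part was not tested.

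In the tumours the groups overlapped at the brightest Ptgs2 probe set. J558L tumour read 8.07 and 7.60 at 0 h and 8.66, 8.23 and 6.74 at 24 h, a change of 0.04 ± 0.52 with the third 24 h array lowest, and the difference between the tumour and kidney responses was -0.71 ± 0.70 (adjusted p = 0.999 in limma). MCA313 read 6.60, 7.44 and 7.11 at 0 h, 6.99 and 8.06 at 24 h, and 6.04 and 7.03 at 48 h, all overlapping. In 16.113 it read 10.84, 11.09 and 10.03 against 10.98, 10.01, 10.22, 9.70 and 10.22, a difference of 0.43 ± 0.42 with the groups overlapping.

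In the fit of single probe sets 1 of the 11 of Ptgs2 passed in 16.113, where 2.28% of all probe sets did. This was 17218061, which fell from 6.86, 6.27, 6.50, 7.31 and 6.40 with deficient to 5.98, 4.96 and 4.37 with competent T cells, a difference of -1.56 ± 0.38 (adjusted p = 0.0357 over the probe sets in limma). Of the other 10 probe sets 6 pointed up and 4 down. The array medians of the set were 5.62 to 5.79, so 17218061 lay close to them, and the competent arrays 2 and 3 below them.

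**Figure D3:**
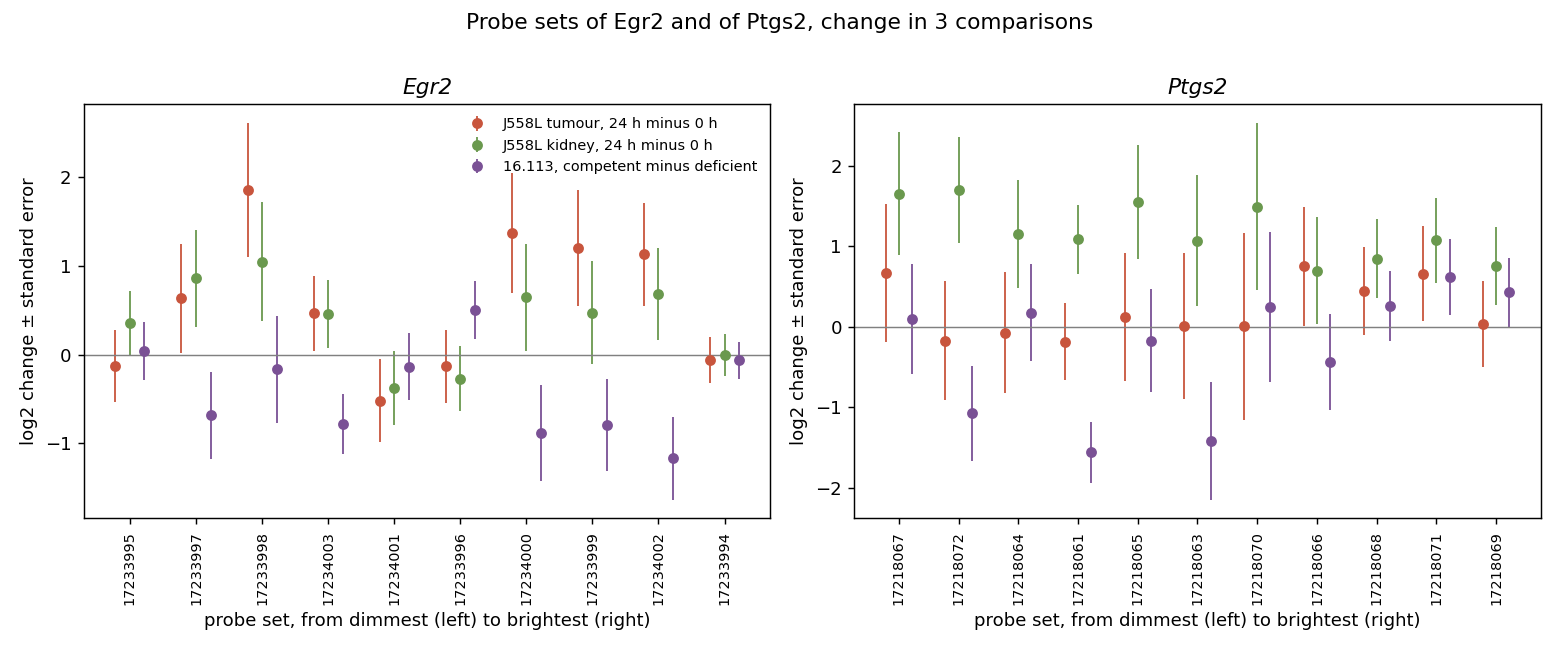
Change ± standard error (log2) at each probe set of Egr2 and of Ptgs2 in J558L tumour, J558L kidney and 16.113 tumour, ordered from dimmest to brightest. The brightest Egr2 probe set lies near 0 in all 3 comparisons. Probe sets 17234000, 17233999 and 17234002 lie above 0 in J558L and below 0 in 16.113, while 17234001 lies below 0 in J558L. All 11 Ptgs2 probe sets lie above 0 in kidney.

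Of the genes that act on mRNA decay, growth arrest and stress, Gadd45b, which encodes a stress sensor that slows the cell cycle and activates p38 signalling, lay above its controls in both induced tumours. In MCA313 it read 10.57, 11.12 and 10.96 at 0 h, 11.71 and 11.62 at 24 h, and 11.44 and 11.64 at 48 h. Every induced array lay above every control, and the first control was the lowest array. The change was 0.78 ± 0.23, 1.72-fold, at 24 h and 0.65 ± 0.23, 1.57-fold, at 48 h, with 6 of 6 probe sets higher at each time and adjusted p of 0.127 and 0.190 in limma. Both comparisons use the same 3 controls. The summed leukocyte markers lay at 9.77 to 10.28 at 0 h, 10.32 to 10.35 at 24 h and 10.17 to 10.59 at 48 h, and their part in the result was not tested.

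In J558L tumour Gadd45b read 10.99 and 11.81 at 0 h and 12.04, 12.27 and 12.37 at 24 h. All 24 h arrays lay above both controls, which themselves differed by more than the 24 h arrays did. The change was 0.82 ± 0.23, 1.77-fold (95% interval 0.34 to 1.30), with 6 of 6 probe sets higher and an adjusted p of 0.129 in limma. It passed when probe sets were averaged (adjusted p = 0.0454 in limma, where 3.82% of 2854 genes passed). With array weights it also passed (0.0217), where 127 of 4386 genes did, against 24 without weights. With only the 5 arrays of this set fitted the adjusted p was 0.314. The change was 1.23 without the second control and 0.41 without the first, so the value depends on which of the 2 controls is kept. Across these arrays the summed pericyte and fibroblast markers also lay apart, at 11.59 to 11.70 at 0 h and 11.97 to 12.01 at 24 h, and the leukocyte markers at 10.39 to 10.75 and 10.55 to 11.24. Their part in the result was not tested.

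Kidney read 12.71, 12.34 and 12.17 for Gadd45b at 0 h and 12.75, 12.75 and 12.63 at 24 h. The first control reached the 24 h range, and the change was 0.30 ± 0.20 (adjusted p = 0.586 in limma), with 6 of 6 probe sets higher. In 16.113 it read 11.19, 11.74 and 11.29 with competent and 11.31, 11.22, 11.04, 11.09 and 11.07 with deficient T cells, a difference of 0.26 ± 0.18 with 2 deficient arrays inside the competent range, and again 6 of 6 probe sets higher. The difference between the 24 h responses of MCA313 and J558L tumour was -0.04 ± 0.32, with a 95% interval of -0.72 to 0.63 (adjusted p = 0.999 in limma).

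Btg2, an antiproliferative cofactor of mRNA deadenylation and a p53 target, was higher in the competent group of 16.113 without passing. It read 9.82, 10.41 and 10.54 with competent and 9.94, 9.22, 9.42, 10.03 and 9.36 with deficient T cells, and the first competent array lay below 2 deficient ones. The difference was 0.66 ± 0.22 (adjusted p = 0.0733 in limma). Although 4 of 4 probe sets were higher, the other 3 differed by 0.08 to 0.10, and the averaged difference was 0.23 (adjusted p = 0.335). The brightest probe set passed without the first competent array (adjusted p = 0.0187), the first deficient array (0.0497) or the fourth deficient array (0.0387), and not without any of the other 5. Without the third competent array the difference was 0.52 (adjusted p = 0.286), and with array weights the adjusted p was 0.368.

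In MCA313 all 4 probe sets of Btg2 lay below the control at 24 h and at 48 h, with medians of -0.52 and -0.34. The brightest read 10.51, 10.29 and 10.16 at 0 h, 10.10 and 10.03 at 24 h, and 9.59 and 10.39 at 48 h, so that the 24 h arrays were just below the lowest control. Probe set 17227091 was further apart, with 9.60, 9.47 and 9.53 at 0 h against 8.72 and 8.78 at 48 h. Its difference there, -0.78, was the lowest of the 4 and did not pass over the probe sets. Of all probe sets 16.4% had groups apart in this direction. At the brightest probe set the adjusted p was 0.835 and 0.697 in limma. J558L tumour read 10.62 and 10.75 against 10.89, 10.71 and 10.73, and kidney 12.25, 11.84 and 11.57 against 11.63, 11.85 and 11.72, both overlapping.

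Zfp36l1, which binds AU-rich elements and leads mRNAs to decay, varied little at its brightest probe set. J558L tumour read 12.85 and 12.90 at 0 h and 13.08, 13.06 and 13.06 at 24 h, a change of 0.19 ± 0.16 (adjusted p = 0.955 in limma) with the groups apart and 6 of 7 probe sets higher. MCA313 read 12.48, 12.58 and 11.98 at 0 h, 12.56 and 12.49 at 24 h, and 12.19 and 12.55 at 48 h. There the brightest probe set differed by 0.18 and 0.02, while 5 and 6 of the 7 probe sets lay below the control and the averaged differences were -0.29 and -0.42 (adjusted p = 0.346 and 0.139 in limma). Kidney read 13.34, 13.31 and 13.15 against 13.22, 13.17 and 13.20, and 16.113 read 12.99, 12.94 and 12.81 against 12.89, 12.79, 12.70, 12.88 and 12.68, with overlap in both.

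Ier5, an immediate-early gene linked to the heat shock factor HSF1, differed most in J558L tumour, where it read 9.08 and 9.14 at 0 h and 9.79, 9.98 and 9.67 at 24 h. The controls lay close together and all 24 h arrays above them, by 0.70 ± 0.29, 1.63-fold (adjusted p = 0.491 in limma), with 3 of 3 probe sets higher. In kidney the values were 9.66, 9.27 and 9.44 at 0 h and 9.54, 9.22 and 9.06 at 24 h, a change of -0.18 ± 0.26, while 2 of the 3 probe sets were higher and the averaged change was 0.13. The difference between these 2 responses, 0.89 ± 0.40 at the brightest probe set and 0.43 ± 0.30 averaged, did not pass (adjusted p = 0.941 and 0.729 in limma). MCA313 read 8.80, 9.61 and 9.08 at 0 h, 9.34 and 8.93 at 24 h, and 9.19 and 9.27 at 48 h, and 16.113 read 9.11, 9.19 and 9.96 against 9.69, 8.57, 8.96, 9.30 and 9.08, with overlap throughout.

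Counted by comparison, J558L tumour at 24 h had 6 of 10 genes with all induced arrays above both controls (Atf3, Fos, Gadd45b, Ier5, Dusp6 and Zfp36l1), against the 13.8% given above. The median of the 10 changes was 0.23 against -0.01 for all genes, and 55 of the 66 probe sets were higher. None of the 10 passed, where 0.547% of genes did, and 2 had an unadjusted p under 0.05 (Gadd45b and Ier5), where 8.14% of genes did. Only 2 controls stand behind each of these values. In MCA313 at 24 h 2 genes lay above their controls without overlap (Atf3 and Gadd45b; 14.1% of all genes) and 1 below (Btg2; 15.8%), and at 48 h 2 above (Gadd45b and Rgs2; 15%) and 1 below (Egr2; 17.6%), shares near the background.

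None of the 10 passed in MCA313 at 24 h (0.684% of genes passed), at 48 h (1.37%) or between 48 h and 24 h (0.0684%), with 1, 1 and 0 at an unadjusted p under 0.05 in limma, where 10.9%, 12.8% and 3.78% of all genes were. In kidney none passed in limma (3.17% of genes did), none had an unadjusted p under 0.05 (13.7%), and none had 24 h arrays all above the controls (10.7% of genes did). In 16.113 9 of 10 differences lay above 0, where 46.8% of all genes did, with a median of 0.28 against -0.03 for all genes, and 51 of 66 probe sets were higher. An unadjusted p under 0.05 was found for 3 genes (Btg2, Rgs2 and Dusp6) and for 21.5% of all genes. None of the 10 passed in the differences of responses between J558L tumour and kidney (0.0228% of genes passed), MCA313 and J558L tumour (0%) or 16.113 and J558L tumour (0%), with 1, 0 and 0 at an unadjusted p under 0.05 in limma, where 4.79%, 2.99% and 6.27% of genes were.

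**Figure D4:**
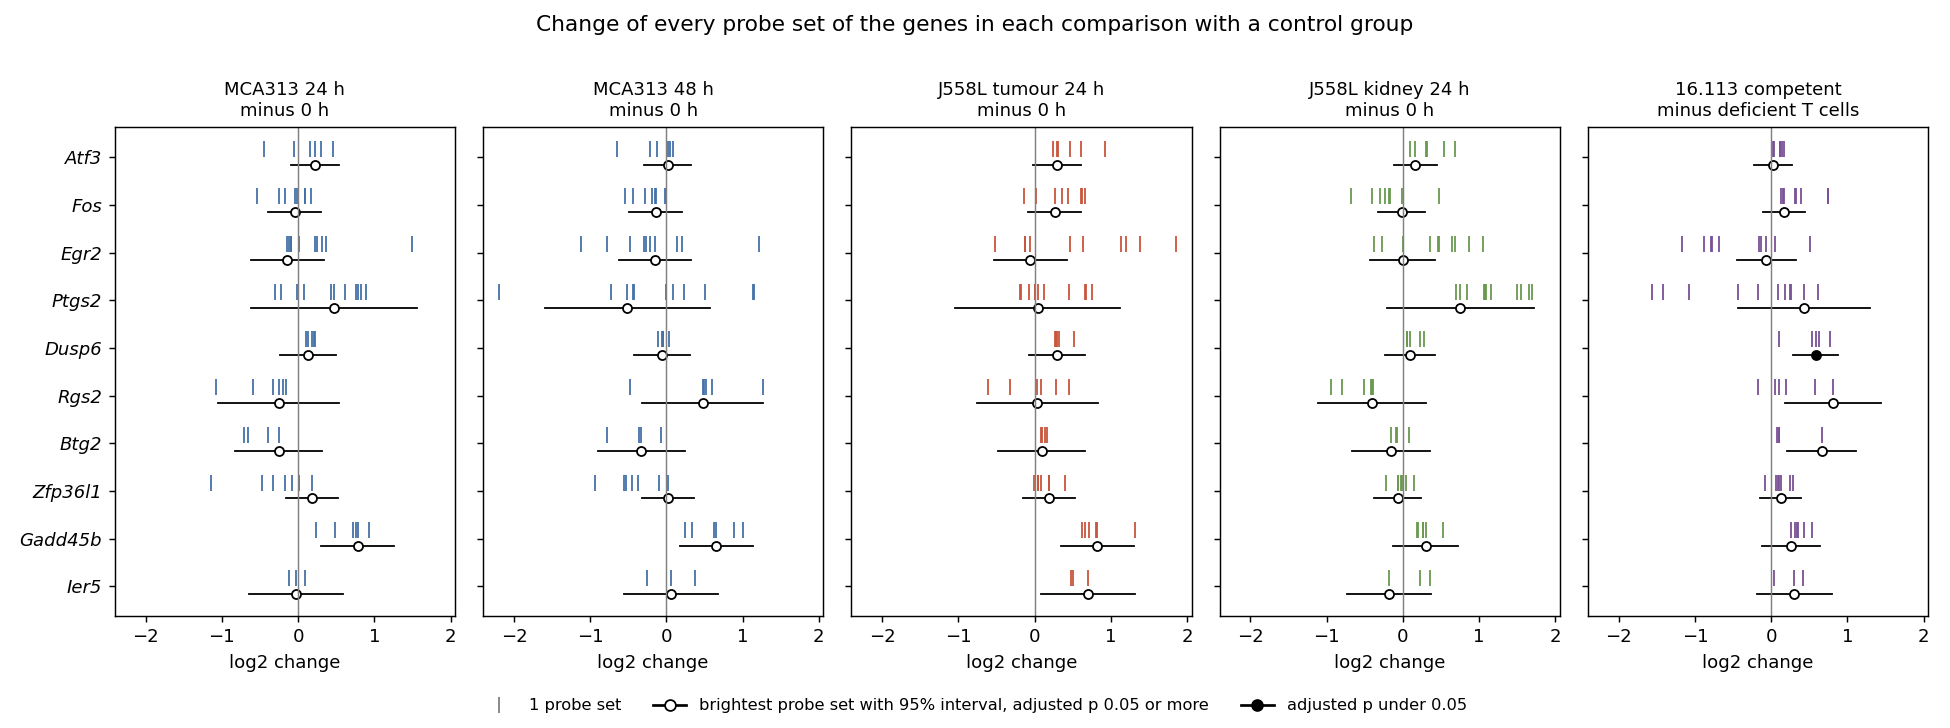
Change (log2) of all 66 probe sets, as ticks, and of each gene's brightest probe set with its 95% interval, as circles, in the 5 comparisons with a control group. The filled circle, Dusp6 in 16.113 at 0.58, is the 1 change with an adjusted p under 0.05, and the Gadd45b ticks lie above 0 in each panel.

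The genes differed in how closely replicates repeated. At the brightest probe set the residual SD within groups was 0.12 for Atf3, 0.14 for Zfp36l1, 0.15 for Fos and 0.16 for Dusp6, against a median of 0.36 over all genes, and between 1.5% and 5.75% of genes had a smaller one. Gadd45b and Egr2 stood at 0.24, Btg2 at 0.30 and Ier5 at 0.33, while Rgs2 (0.43) and Ptgs2 (0.61) were above the median. A change of a given size was thus measured more closely at the brightest probe set of Dusp6 or Fos than at that of Ptgs2. Other probe sets of these genes can spread more: Fos probe set 17277391 read 4.57 and 7.66 at 24 h in MCA313.

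Within sets the 10 genes were related loosely. After each value was centred on the mean of its set, Pearson's r over the 26 arrays was above 0 for 33 of 45 pairs, with a median of 0.24, from -0.39 (Dusp6 and Egr2) to 0.64 (Btg2 and Dusp6). Centred on the group instead, which removes the differences between groups, the median was 0.11, with 25 of 45 pairs above 0 and 0.48 for Btg2 and Dusp6. The arrays of a pair of genes share library, amplification and normalization, so these values are descriptions. In the mean over the 10 genes the 3 competent arrays of 16.113 lay 0.10 to 0.26 above the mean of the set and the deficient ones from 0.27 below to 0.02 above.

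**Figure D5:**
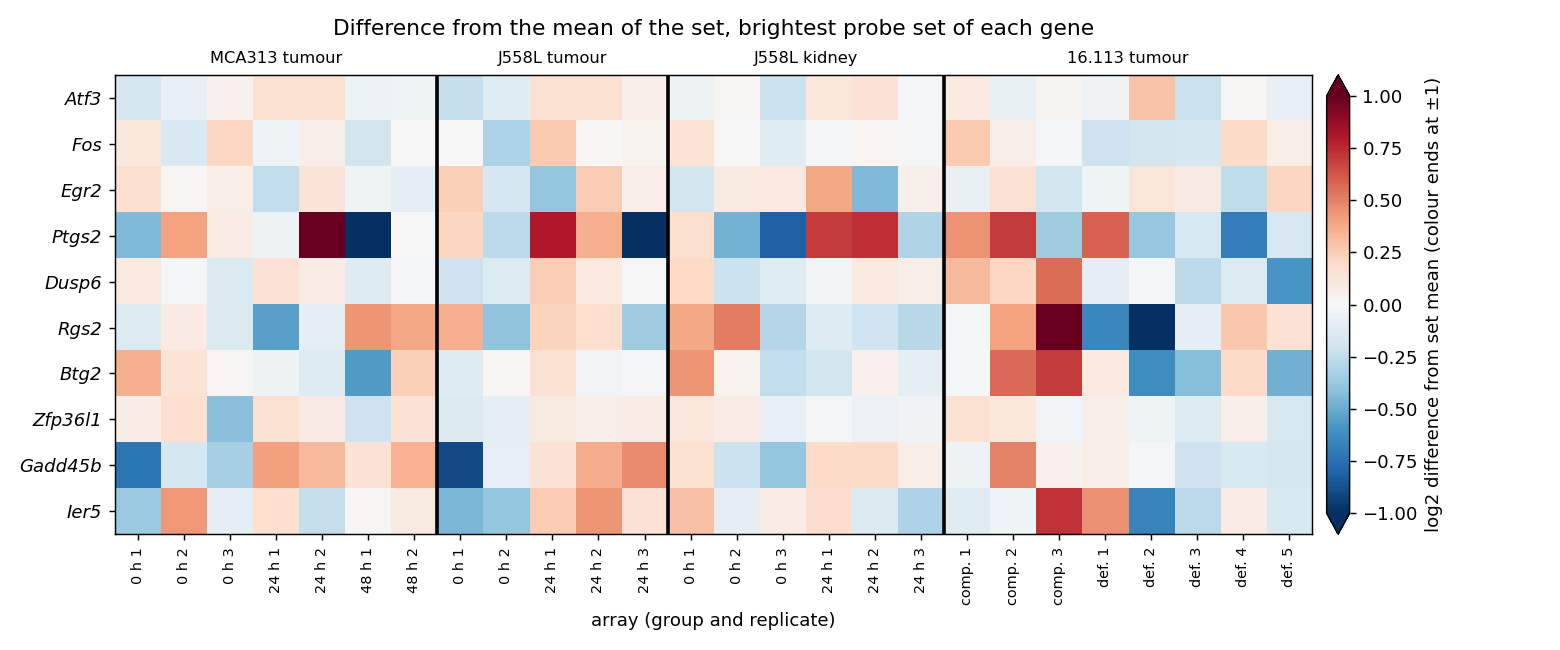
Difference of each array from the mean of its set (log2), for the brightest probe set of the 10 genes, with arrays in columns and colours ending at ±1. Ptgs2 and Rgs2 show the strongest colours within groups, Gadd45b is lowest in the first controls of MCA313 and J558L tumour, and Dusp6 is above the mean of the set in the 3 competent arrays of 16.113.

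Outside the 10 genes the gene most like their mean over the 26 centred arrays was H3f3b, a gene of the replication-independent histone H3.3 (r = 0.81), followed by Cep112 (0.75), Myct1 (0.74), Snhg10 (0.74) and Nbeal1 (0.73). For single genes the closest were Nuak2 for Gadd45b (0.81), Mtrf1l for Rgs2 (0.81), Elac2 for Dusp6 (0.80), Hal for Zfp36l1 (0.80), Actg1 for Ier5 (0.79), Elk4 for Btg2 (0.77), Ncapg2 for Egr2 (0.73), Hk1os for Ptgs2 (0.70), Hk1 for Atf3 (0.67) and Trarg1 for Fos (0.65). Each is the highest value over all genes tested and carries no test.

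A list of 124 further genes of the same kinds was read beside the 10. Those without a probe set of their symbol alone among the 65535 used, among them Jun, Egr1, Nr4a1, Dusp1, Zfp36 and Hspa1a, were not measured here. No result covers them. The values may hold only part of the array, so the absence of these genes says nothing about their expression or about the array. The other 52 were tested. These were 5 of 18 AP-1 and CREB relatives, 8 of 23 early zinc finger, nuclear receptor and similar factors, 12 of 22 feedback inhibitors, 8 of 22 genes of mRNA decay and growth arrest, 10 of 20 NF-kB targets and secreted factors, and 9 of 19 heat shock and chaperone genes. In MCA313 and J558L tumours 2 of the 52 rose and none fell at each time. Of all genes 0.684% passed in MCA313 at 24 h, 1.37% at 48 h and 0.547% in J558L tumour. The 2 were Id2, an inhibitor of helix-loop-helix factors, and Socs3, the feedback inhibitor of cytokine receptors. Id2 rose by 1.97 ± 0.26 at 24 h and 2.07 ± 0.26 at 48 h in MCA313 and by 1.90 ± 0.26 in J558L tumour, and Socs3 by 1.63, 1.17 and 1.25, with adjusted p from 7.55e-05 to 0.00283 in limma. Not all their probe sets pointed the same way: at 24 h in MCA313 2 of 4 for Id2 and 4 of 6 for Socs3 were higher. Between 48 h and 24 h none of the 52 passed in limma (0.0684% of all genes did), with 1 at an unadjusted p under 0.05 (3.78%). The largest values there were -0.83 ± 0.66 for Rgs5, known as a pericyte marker, and -0.62 ± 0.38 for Rgs4.

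In kidney Batf3, an AP-1 relative known for its role in dendritic cell development, rose from 6.92 ± 0.42 (SD, n = 3) to 9.27 ± 0.41 (SD, n = 3), by 2.35 ± 0.29 (adjusted p = 7.84e-05 in limma) with 3 of 3 probe sets higher. Markers of other cells differed there too without passing: Cd79b, listed as a leukocyte marker, read 6.55 to 6.98 at 0 h and 7.39 to 7.57 at 24 h. It is known as a B cell gene, and these Rag-/- hosts have no mature B cells. The 5 leukocyte markers summed overlapped in kidney, at 10.31 to 11.07 at 0 h and 10.97 to 11.15 at 24 h. The muscle and pericyte gene Des was 0.76 ± 0.25 lower on average, and the mean of Rgs5 went from 11.76 to 11.11. The other pericyte and fibroblast markers measured were higher on average: Col1a1 (10.34 to 10.51), Col3a1 (9.41 to 9.72), Dcn (8.01 to 8.56) and Lum (4.29 to 4.37). Their part in the rise was not tested. The early zinc finger factor Klf6 rose in kidney by 0.68 ± 0.18 (adjusted p = 0.0367 in limma). The clock gene Per1 fell there by 0.93 ± 0.17 (adjusted p = 0.00365 in limma) with 22 of 23 probe sets lower. Batf3 and Klf6 also lay above all controls in MCA313 and J558L tumour without passing, and overlapped in 16.113. Of all genes 14.1% lay above their controls in MCA313 at 24 h, 15% at 48 h and 13.8% in J558L tumour. The mean of Batf3 went from 7.89 to 9.05 and 8.88 in MCA313 and from 8.94 to 9.99 in J558L tumour. That of Klf6 went from 12.52 to 12.96 and 13.03, and from 12.98 to 13.44. In 16.113 the mRNA-stabilising Arid5a was higher with competent T cells by 0.90 ± 0.21 (adjusted p = 0.0103) and Btg1, the close relative of Btg2, by 0.74 ± 0.22 (adjusted p = 0.0465). The pseudokinase gene Trib2 was lower by 1.58 ± 0.43 (adjusted p = 0.0265), from a mean of 7.37 to 5.79, with groups that overlapped. By list, AP-1 and CREB relatives passed only through Batf3, and the feedback inhibitors through Socs3 and Trib2, in the 6 comparisons within a set. None of the 10 NF-kB targets and secreted factors and the 9 heat shock and chaperone genes tested passed in any of these 6. At most 1 of each list had an unadjusted p under 0.05 in limma, where 3.78% to 21.5% of all genes did. Among the 52 genes 2 passed higher and 1 lower in kidney, where 3.17% of all genes passed. In 16.113 the counts were also 2 and 1, where 7.36% of all genes passed. The median over the 52 genes was 0.11 in MCA313 at 24 h, 0.10 at 48 h, 0.16 in J558L tumour, 0.20 in kidney and 0.00 in 16.113. For all genes it was -0.01, -0.02, -0.01, 0.01 and -0.03 in the same order.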

How the data were processed

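Gene expression was measured on Affymetrix arrays in 26 samples. The values used are the authors' deposited log2 values per probe set. The submitters' processing notes name Affymetrix Expression Console and limma without versions, and the normalization method and genome build are not given in the sources used here. Probe sets were named through the array annotation, and those with several symbols (766) or none (10912) were left out. The brightest probe set by mean over all arrays stood for a gene, which was kept if above the array's 50th percentile in at least 2 arrays (4386 genes). Means of the 9 groups were fitted in limma 3.58.1 (R 4.3.3), with Benjamini-Hochberg adjusted p under 0.05 called. Precision is limited by how many arrays a group has. The procedure was tested on simulated data. The 10 genes, the wider and marker lists, and the rules for genes named (all members, and wider-list genes past the test) were chosen with earlier results of these data known. Likeness named the 5 genes with highest r to the members' mean and 1 per member. The Dusp6 promoter was added after its value was seen. Alternatives were other filters, quantile normalization, averaged or single probe sets, another variance prior, weights per array, a replicate block (statmod 1.5.0), only the arrays of the sets compared, and each array left out in turn.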

Additional observations from a re-analysis of the deposited data

Results flagged for a closer look

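In the 5 deficient arrays of 16.113, the only group large enough to be checked for single distant arrays, 5 of the 66 probe sets had 1 array far from the other 4, where chance gives about 1 in 20. Atf3 probe set 17231039 read 6.18 in replicate 5, with 5.31 the nearest. Fos probe set 17277389 read 8.18 in replicate 4 (nearest 7.30). Ier5 probe set 17228350 read 7.90 in replicate 2 (nearest 8.40). Egr2 probe set 17233995 read 2.42 in replicate 5 (nearest 3.40) and 17234001 read 6.04 in replicate 4 (nearest 6.61). None of these is the brightest probe set of its gene. Egr2 probe set 17233995 lay above the array median in 0 of the 26 arrays, and Atf3 probe set 17231039 in 2.

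At 3 probe sets the differences had opposite signs in 2 comparisons, without overlap with the controls in either, and whether they differ was not tested. Atf3 probe set 17231038 differed from its controls by -0.64 in MCA313 at 48 h and by 0.93 in J558L tumour at 24 h. Fos probe set 17277393 differed by -0.44 and 0.63 in the same comparisons. Ptgs2 probe set 17218072 differed by -0.44 in MCA313 at 48 h and by 1.70 in J558L kidney at 24 h. In MCA313 that probe set read 3.43 or less in every array, below the array medians of 5.78 to 5.88, so its difference there has no weight as a direction.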

How the results depend on the processing

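The count of the 10 genes past the test moved in 2 comparisons. In 16.113 it was 1, and 0 with array weights, 0 when only the arrays of the sets compared were fitted, 2 with every probe set fitted (Dusp6 17236883 higher and Ptgs2 17218061 lower), and 0 to 3 when 1 array was left out. In J558L tumour it was 0, and 1 with array weights, 1 with averaged probe sets and 0 to 1 when 1 array was left out. Of 670 values of single genes with 1 array left out, 638 kept their direction and side of the threshold or moved by less than 1 residual SD. Another 26 moved, 1 weakened and 5 strengthened. Of 720 under the other alternatives these numbers were 691, 25, 2 and 2. No called value changed sign, and 62 and 18 uncalled ones did. The replicate numbers were not seen to pair the samples (correlations of same-numbered arrays -0.14 to 0.11 within a set and -0.09 to 0.04 between J558L tumour and kidney, which the labels do not tie to shared mice), and the replicate block, with a consensus correlation of -0.05, changed no member's call, with 0.59 and adjusted p 0.0144 in limma for Dusp6 in 16.113. Leaving out an array of a group of 2 assumes that the other varies like the other groups.

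Over all genes tested (4386, or 2854 with averaged probe sets and 3135 or 5109 with other filters) the counts past the test were less steady: 323 in 16.113 became 197 to 565 with 1 array left out and 34 to 444 under the other alternatives, 139 in kidney became 69 to 103 and 67 to 277, and 24 in J558L tumour became 3 to 18 and 18 to 127. For MCA313 the 30 at 24 h became 12 to 49 and 1 to 140, the 60 at 48 h became 14 to 79 and 4 to 174, and the 3 between times became 0 to 7 and 0 to 3. Groups of 2 arrays limit the calls in the MCA313 and J558L tumour comparisons.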
